A study of Mus musculus with 24 samples.

Results

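The replication-dependent histone genes make the bulk of the H2A, H2B, H3, H4 and linker H1 histones that package newly copied DNA. Of the 24456 genes in the count tables of this study, 65 belong to them by their symbols, which begin with Hist1h, Hist2h, Hist3h or Hist4h. Hist1h1t, Hist1h2ba and Hist1h2aa, which carry such symbols but encode testis-specific variants, were left out. The 65 comprise 5 H1, 17 H2A, 18 H2B, 12 H3 and 13 H4 genes. Their prefixes name 4 clusters, of which Hist1 on chromosome 13 holds 51 genes, Hist2 on chromosome 3 holds 10, Hist3 on chromosome 11 holds 3 and Hist4 on chromosome 6 holds 1. One of them, Hist3h2bb-ps, is annotated as a pseudogene.

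Testes of pups homozygous for an Atad2 knockout allele (KO) and of wild-type pups (WT) were compared at postnatal days 20, 22, 24 and 26, with 4 WT and 4 KO libraries at days 20 and 22 and 2 WT and 2 KO libraries at days 24 and 26. The study's methods give fewer replicates at day 20 than the labels, which were followed here. Atad2 encodes an ATPase with a bromodomain that acts on histone chaperones. The KO allele is a gene-trap allele with a lacZ reporter from which CMV-Cre removed an exon in every tissue, so that the ATPase and bromodomain parts of the protein are not made, in somatic cells of the testis as well as in germ cells. The labels do not state that each replicate is a separate animal, so p-values measure the spread between these libraries. The RNA was depleted of ribosomal RNA and not selected for poly(A), which matters here because most of these transcripts carry no poly(A) tail.

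In most cell types the transcripts of these genes are made during S phase, in step with DNA replication, and are degraded when it ends. They are not spliced and end in a short hairpin, the histone stem-loop, which binds the protein SLBP in place of a poly(A) tail. In the testis the germ cells that replicate DNA are spermatogonia and preleptotene spermatocytes, while the later meiotic and the haploid cells that accumulate over these days do not. Testis variants of core and linker histones join them from meiosis onwards, and in spermatids histones give way to transition proteins and protamines.

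The stem-loop is shown first because it sets whether these RNAs are seen in a poly(A) or only in a total RNA library. A match to the histone stem-loop consensus was found behind the stop codon in the transcripts of 45 of the 65 genes (GENCODE M21 transcripts, GRCm38). It was present in 44 of the 48 genes (91.7%) whose annotated transcript reached at least 60 bases past the stop codon. For all protein-coding genes the whole transcript was searched, with no limit on its tail, and 600 of 21877 (2.74%) had a match. The 2 shares are therefore not of the same measure. Of the other 17 genes, Hist1h4m had a match in a tail of 55 bases, and Hist1h1a and Hist2h3b had none in tails of 51 and 40 bases. Among the remaining 14, the pseudogene Hist3h2bb-ps has no annotated stop codon and was not searched. The others end within 5 bases of the stop codon in the annotation, so that no match could be found there. The 16 bases of the stem-loop are in capitals below, with up to 7 flanking bases on each side, for the most abundant members of each class with a match and for the 2 stem forms of H4.
Hist1h1c: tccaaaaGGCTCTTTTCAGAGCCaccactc
Hist3h2a: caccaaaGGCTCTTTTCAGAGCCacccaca
Hist1h2bm: acacaaaGGCTCTTTTCAGAGCCactaagc
Hist1h3f: ccaaaacGGCTCTTTTAAGAGCCacctcca
Hist1h4c: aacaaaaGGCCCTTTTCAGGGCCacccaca
Hist1h4j: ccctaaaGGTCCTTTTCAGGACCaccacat
The H1, H2A, H2B and H3 members with a match shared the stem arms GGCTCT and AGAGCC, while 10 H4 members had GGCCCT and AGGGCC and 2 H4 members, Hist1h4b and Hist1h4j, had GGTCCT and AGGACC. Among the members with long annotated tails, Hist1h2bc, Hist2h2be, Hist1h2bq and Hist1h2br had no match.

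Promoters also differed by class. Promoter windows from RefSeq of 300 bases, from 250 before the start to 50 after it, were at hand for 59 of the 65 members. On either strand the motif CCAAT was found in every window of the H1, H2A, H2B and H3 genes, 5, 17, 15 and 10 in number, but in 3 of 12 H4 windows, against 37.4% of 32851 windows of all genes. TATAAA was found in 33 of 59 windows, or 55.9%, against 13.6% of all windows. The octamer ATTTGCAT was found in 6 H2A and 5 H2B windows and in no H1, H3 or H4 window, against 1.74% of all windows. Windows of neighbouring H2A and H2B genes on opposite strands can overlap, so that 1 site can count for both genes. Hist1h2ae and Hist1h2bg share their octamer in this way, as do Hist1h2ah and Hist1h2bk. None of these motifs overlapped another in the windows printed here. The 250 bases before the start are given for 3 members whose levels are described below, with every match to these 3 motifs, or to its reverse complement, in capitals. They belong to Hist1h1a (chr13:23763418-23763667, plus strand), Hist1h2bm (chr13:21721794-21722043, plus strand) and Hist4h4 (chr6:136804432-136804681, minus strand) in GRCm38.p6.
Hist1h1a: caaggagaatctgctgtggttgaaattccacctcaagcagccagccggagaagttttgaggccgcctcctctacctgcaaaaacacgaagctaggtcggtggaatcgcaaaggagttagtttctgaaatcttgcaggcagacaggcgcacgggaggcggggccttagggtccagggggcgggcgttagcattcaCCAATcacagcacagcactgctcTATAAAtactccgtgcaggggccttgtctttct
Hist1h2bm: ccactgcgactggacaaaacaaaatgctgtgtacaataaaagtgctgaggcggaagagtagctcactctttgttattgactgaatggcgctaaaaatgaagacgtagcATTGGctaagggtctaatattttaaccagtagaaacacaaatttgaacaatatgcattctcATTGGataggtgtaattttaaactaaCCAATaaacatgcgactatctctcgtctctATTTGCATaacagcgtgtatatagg
Hist4h4: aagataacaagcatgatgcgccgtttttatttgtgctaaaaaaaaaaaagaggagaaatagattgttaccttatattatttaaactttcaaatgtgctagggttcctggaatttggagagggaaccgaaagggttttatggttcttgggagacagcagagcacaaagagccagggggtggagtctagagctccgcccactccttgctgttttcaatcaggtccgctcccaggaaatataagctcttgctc
Hist1h1a has both CCAAT and TATAAA, Hist1h2bm has CCAAT on both strands and the octamer, and Hist4h4 has none of these letters in its window.

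The coding parts of these genes are so alike that a read pair often fits several of them, and the authors discarded pairs with several alignments. Uniqueness was estimated as the share of 75-base windows of a member's annotated transcripts that occur at a single place among all GENCODE transcripts, and it ranged from 0 for Hist2h2aa2 to 100 percent for Hist1h1a, Hist1h1b, Hist2h2be and Hist2h4. It was at least 50% for 38 members. Levels of the others count only the pairs that could be placed and are too low by an unknown factor. How far this affects comparisons of the same gene between libraries was not tested. Of the 65 members 57 passed the filter on low counts and were tested. Hist1h2ap, Hist1h2bq, Hist1h2br, Hist2h2aa1, Hist2h3c1 and Hist2h3c2 had 0 counts in each of the 24 libraries, and Hist1h2ao and Hist1h4n had at most 2 counts in any library. At most 16.6% of the windows of 6 of these 8 were unique, so that their low counts cannot be read as low transcription. Hist2h3c1 and Hist2h3c2 had 66.2% and 37.4% unique windows.

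Libraries held between 10709667 and 19491935 counts assigned to genes. Levels below are in CPM, counts scaled to a common library total with TMM factors. The labels give testis as the tissue, although a protocol there also describes purified germ cell fractions. Atad2 itself was at 76.1 to 171 CPM in the WT libraries and at 30.8 to 53.0 CPM in the KO libraries, with no overlap; where in the gene the KO reads lie was not tested. Markers of Sertoli cells summed to between 384.9 and 707.2 CPM and markers of pachytene spermatocytes to between 1818 and 4784 CPM in every library, so that somatic and germ cells were both present. Elongating spermatid transcripts summed to 2.0 to 8.9 CPM in WT and 7.1 to 121 CPM in KO at day 20 and to 2066 to 3357 CPM at day 26. WT day 20 replicate 2 stood apart from all other libraries in the histone transcripts, as given below, and in mt-Rnr2, a mitochondrial ribosomal RNA (14094 CPM, against 658.5 to 3917 CPM in the other 23). Counts of members and the tests of named members are therefore also given without it where they depend on it.

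As a group the histone transcripts were lower at day 26 than at day 20 in both genotypes. Their summed level in WT at day 20 was 2510, 10803, 2533 and 3108.5 CPM, and in KO it was 4099, 4534, 3247 and 2682 CPM. The WT value of 10803 CPM is that of replicate 2, which lay above every KO library. Of the KO libraries 3 lay above the other 3 WT libraries and 1 among them. At day 22 the WT libraries were at 2937, 3563, 2374 and 2081 CPM and the KO libraries at 3546, 2146, 2988 and 1565 CPM, of which 3 lay within the WT range and 1 below it. In WT the mean of day 22, 2739 CPM, did not lie below that of day 20 without replicate 2, 2717 CPM. At day 24 WT was at 2160 and 1937 CPM and KO at 2341 and 1997 CPM. At day 26 WT was at 1908 and 1496 CPM and KO at 1819 and 1901 CPM, below every library of day 20. On the log2 scale the mean summed level of day 26 lay below that of day 20 by a difference of -1.18 in WT, or -0.68 without WT day 20 replicate 2, and of -0.94 in KO. The KO against WT differences of the summed level were -0.10 at day 20, or 0.40 without that library, -0.13 at day 22, 0.08 at day 24 and 0.14 at day 26. A sum over chosen genes was not tested. In a whole testis fewer replicating cells among more meiotic and haploid ones and less histone RNA per cell cannot be told apart.

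**Figure D1:**
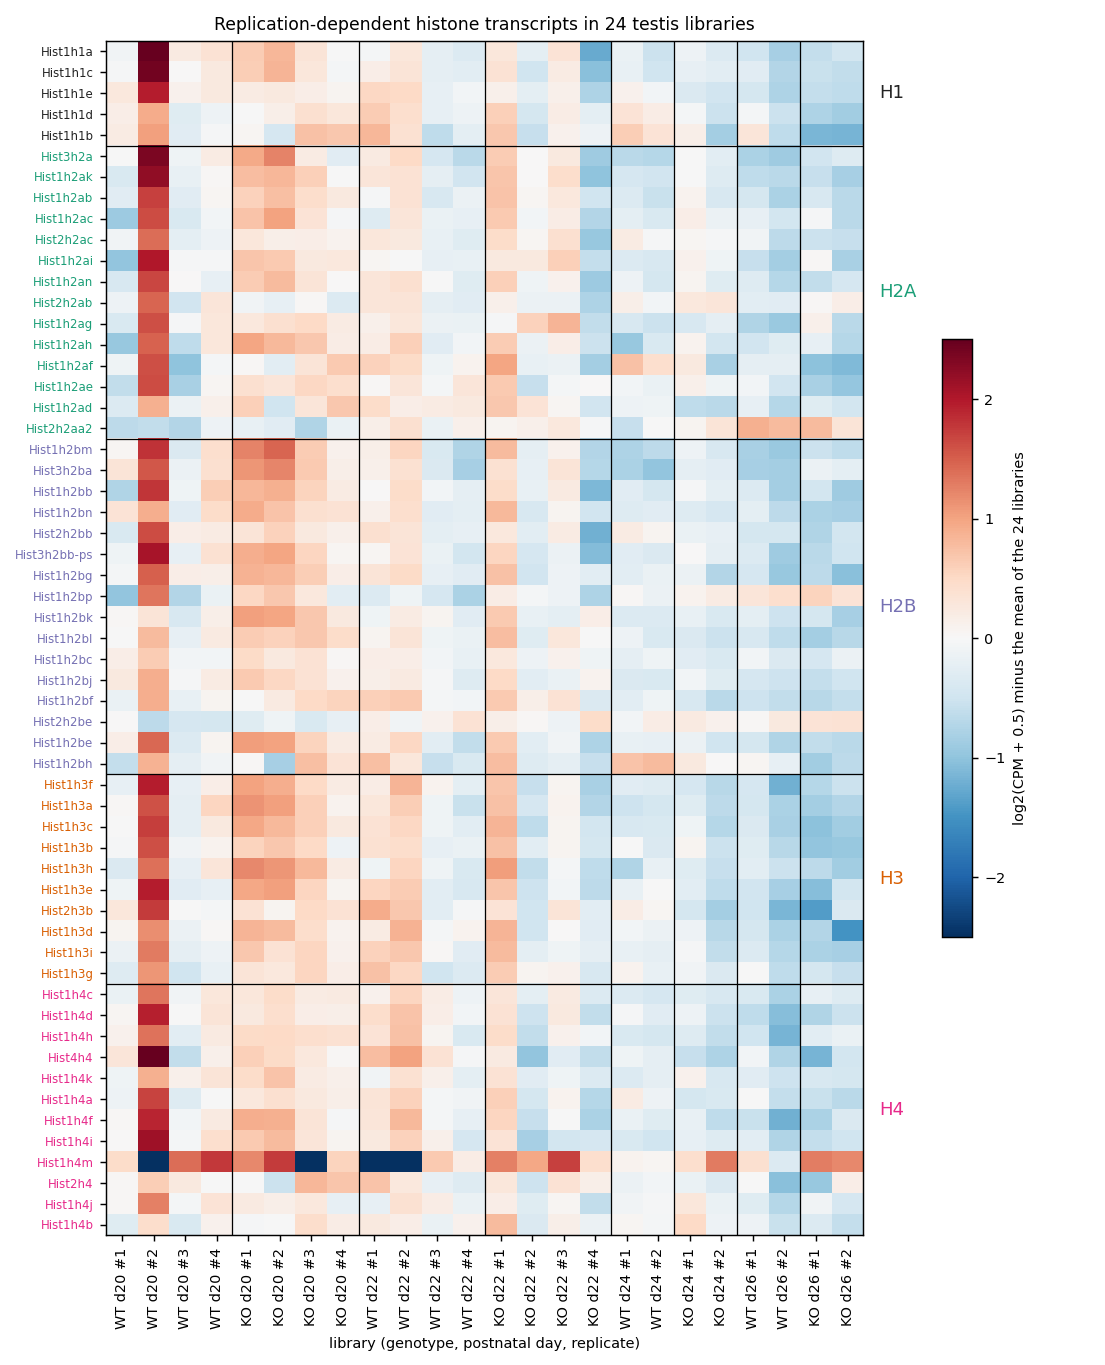
Each of the 57 tested members (rows, by class) in each of the 24 libraries (columns, by day and genotype), as log2(CPM + 0.5) minus that member's mean over all libraries. The column of WT day 20 replicate 2 is the darkest red, the libraries of days 24 and 26 are mostly blue, and the row of Hist1h4m has 4 dark blue cells.

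**Figure D2:**
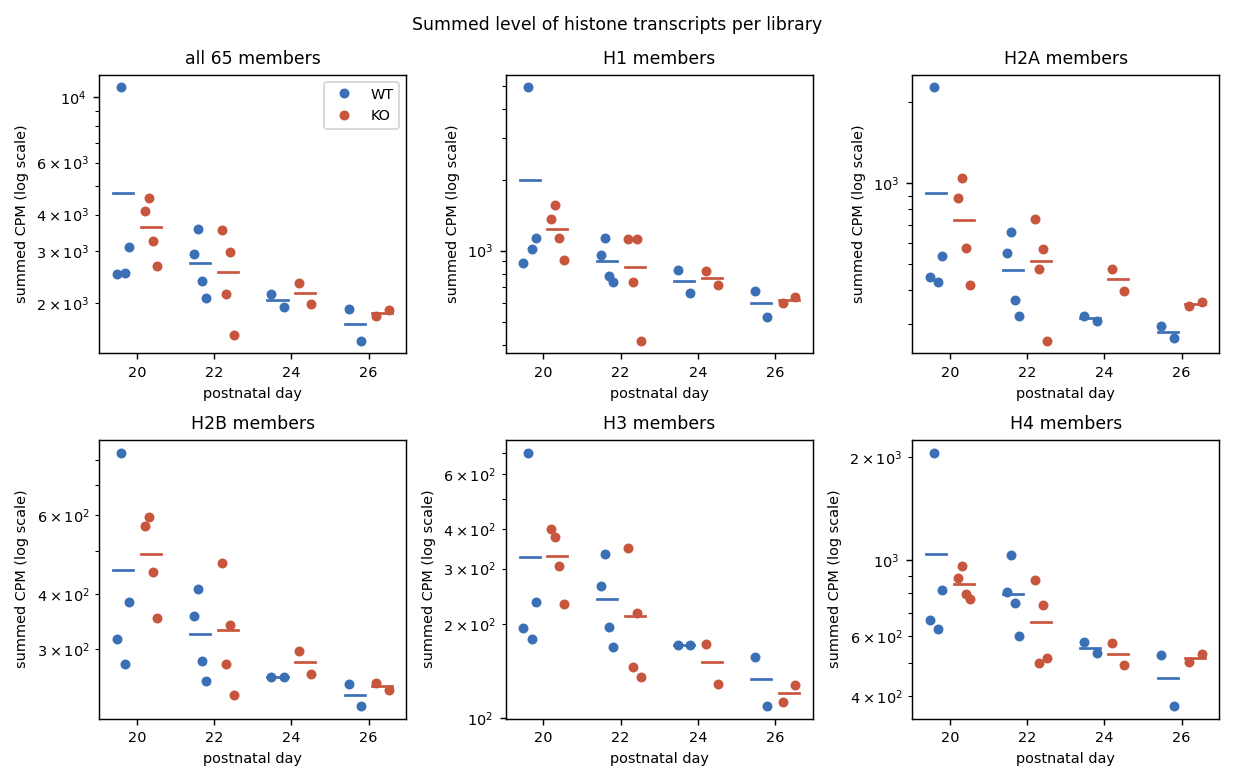
Summed CPM (log axis) of all 65 members and of each class per library (points; bars are group means) against postnatal day. One WT library at day 20 lies at 10803 CPM, while the other 23 lie between 1496 and 4534 CPM, and the lowest values are those of day 26 and 1 KO library of day 22.

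A few genes made up most of this sum. Hist1h1a, an H1 linker histone, gave 25.9% of the mean summed level, Hist3h2a, an H2A gene of the small chromosome 11 cluster, 14.97%, Hist1h4c 8.16% and Hist1h1c 6.84%. Per kilobase of transcript, which allows levels of different genes to be compared within the limit of uniqueness, Hist1h1a had a mean level over the 24 libraries of 1016 CPM per kb ± 888 (SD, n = 24). Hist3h2a was next with 863 ± 691 and then Hist1h4c with 637 ± 235 CPM per kb, so the spreads of the top 3 overlap. These SDs span days and genotypes, and the genes were not compared within each library. Without WT day 20 replicate 2 the top 3 had 843 ± 279, 738.5 ± 333 and 598 ± 140 CPM per kb (SD, n = 23), which overlap too. The SDs given below with all libraries also include that library.

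Within the linker histones, Hist1h1c followed with 276 ± 224 and Hist1h1e with 84.1 ± 49.5 CPM per kb. Among H2A genes, which form dimers with H2B at the edge of the nucleosome, Hist1h2ak (69.3 ± 50.9) and Hist1h2ab (35.6 ± 18.8) came after Hist3h2a by a wide margin. Among H2B genes Hist1h2bm (132 ± 86.2), Hist3h2ba (81.0 ± 44.6) and Hist1h2bb (70.7 ± 40.1 CPM per kb) led with overlapping spreads. Hist3h2a and Hist3h2ba lie on either side of Hist3h2bb-ps on chromosome 11, at chr11:58954685-58956830 and chr11:58948920-58949533 of GRCm38, both on the plus strand.

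H3 and H4 form the tetramer at the core of the nucleosome. Hist1h3f (80.6 ± 51.9), Hist1h3a (71.2 ± 39.5) and Hist1h3c (65.8 ± 37.0 CPM per kb) led the H3 class with overlapping spreads. In the H4 class Hist1h4d (281 ± 165) and Hist1h4h (228 ± 94.5 CPM per kb) followed Hist1h4c, then Hist4h4 (194 ± 173) and Hist1h4k (181 ± 52.2), and the means of the other 8 H4 genes were below that of Hist1h3f. In summed CPM, which is not scaled by length, the day 20 KO means were 1240 ± 281 for H1, 728 ± 285 for H2A, 491 ± 112 for H2B, 329 ± 76.7 for H3 and 852 ± 87.7 for H4 (SD, n = 4).

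Loss of Atad2 was the main comparison of the study, and no member was called in it on any day. With edgeR's quasi-likelihood test over 17170 genes and Benjamini-Hochberg adjustment, 0 of 57 members had an adjusted p under 0.05 at day 20, where 3.34% of all genes were called, and 0 at day 22, where 2.51% were called. The count was also 0 at day 24, with 0.0874% of all genes called, at day 26, with 0.0466%, and in the mean of the 4 days, with 7.08%. An unadjusted p under 0.05 was reached by 2 members at day 20 (12.5% of all genes), by 0 at day 22 (14.6%), day 24 (5.23%) and day 26 (11.5%) and by 2 in the mean (23.2%). DESeq2 called 1 member at day 20, Hist1h2bk, which is 1.75% of the members where it called 5.05% of all genes, and 0 at day 22 (4.08% of all genes), day 24 (0.244%), day 26 (1.02%) and in the mean (9.65%). The median log2 fold change of the members was 0.01 at day 20 and -0.05 in the mean of the 4 days, beside 0.01 for all genes in both, and members split into 29 positive and 28 negative at day 20 and 23 and 34 in the mean. The median standard error of a member was 0.36 at days 20 and 22, 0.51 and 0.52 at days 24 and 26 and 0.22 in the mean. Differences of 2-fold could therefore go uncalled on a single day, and larger ones too at days 24 and 26.

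Hist1h2bk, an H2B gene at chr13:22035870-22036345, was nearest to the threshold. It was at 27.9, 27.1, 21.9 and 15.9 CPM in KO at day 20 and at 13.8, 16.8, 10.1 and 14.9 CPM in WT. Of the KO libraries 3 were above all WT libraries, and the lowest KO library lay within the WT range. KO exceeded WT by 0.74 ± 0.21 on the log2 scale (SE, 95% interval 0.31 to 1.18) with an adjusted p of 0.0524. Without WT day 20 replicate 2 it was 0.83 with an adjusted p of 0.0512, and DESeq2 gave 0.74 with an adjusted p of 0.0175. With edgeR the gene was called without KO day 20 replicate 4 (adjusted p 0.045). It was also called without KO day 22 replicate 1, 2 or 3 (adjusted p 0.0254, 0.0425 and 0.0494). Leaving out any other library did not lead to a call. The same gene was at 9.78 and 7.34 CPM in KO and 11.2 and 9.18 CPM in WT at day 26, with overlap. Only 27.4 percent of its windows are unique.

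Hist1h1e, a linker histone gene at chr13:23620629-23622558, had the second smallest p at day 20. Its KO libraries were at 69.1, 71.6, 67.6 and 63.4 CPM and its WT libraries at 72.5, 234, 64.5 and 70.8 CPM, which overlap but for the 1 high WT library. Its difference on the log2 scale, -0.70 ± 0.32 (SE; adjusted p 0.370), was -0.04 without that library. Hist2h2ab, an H2A gene of the Hist2 cluster, had -0.65 ± 0.32 (SE; adjusted p 0.409), and its WT value of 14.4 CPM in replicate 2 stood above 3.41 to 6.19 CPM in the other WT libraries and 3.79 to 5.09 CPM in KO. Without replicate 2 its difference was -0.09.

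Hist4h4, the lone member of the Hist4 cluster (chr6:136801553-136804415), had negative KO against WT values at all 4 days, of which that of day 20 was 0.35 without WT day 20 replicate 2. At day 22 it was at 83.2, 35.4, 57.7 and 46.1 CPM in KO and at 120, 142, 90.5 and 69.5 CPM in WT, where 1 KO library lay within the WT range. Its log2 difference was -0.92 ± 0.49 (SE; adjusted p 0.426) at day 22 and -0.66 ± 0.30 (SE, 95% interval -1.29 to -0.03; adjusted p 0.195) in the mean of the 4 days, or -0.36 in the mean without WT day 20 replicate 2. The H1 genes Hist1h1b and Hist1h1d had means of -0.51 ± 0.24 (adjusted p 0.201) and -0.32 ± 0.16 (adjusted p 0.221), and all 5 H1 genes had negative values in the mean of the 4 days, none of them called. Without WT day 20 replicate 2 Hist1h1a and Hist1h1c had 0.13 and 0.06.

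At day 24 the smallest p belonged to Hist2h2aa2, Hist1h1d and Hist1h2ad, with log2 fold changes of 0.75, -0.56 and -0.89 and an adjusted p of 1 each. At day 26 it belonged to Hist1h1b (-1.17 ± 0.57, adjusted p 0.436), Hist1h1d (-0.57 ± 0.37, adjusted p 0.581) and Hist1h2af (-1.10 ± 0.76, adjusted p 0.602). Hist1h1b was at 3.51 and 3.50 CPM in KO and at 10.49 and 5.24 CPM in WT at day 26. The groups do not overlap, but with 2 libraries a genotype 38.6% of the members and 59.0% of all tested genes did not overlap at day 26, and 52.6% and 44% at day 24. With 4 libraries a genotype no member had groups without overlap at day 20 or 22, against 4.71% and 8.09% of all tested genes. At day 20 WT replicate 2 was the highest of all 24 libraries for 50 of the 57 members. For these the KO libraries could not lie above all WT libraries, and the count without that library was not made.

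The library WT day 20 replicate 2 set the sign of the day 20 comparison. Without it 53 of 57 members were higher in KO than in WT at day 20, with a median log2 fold change of 0.50 beside 0.00 for all genes, and 18 members had an unadjusted p under 0.05, a share of members to read against 17.6% of all genes. One member was then called, Hist1h2bp (0.94, adjusted p 0.0476), where 1.87% of all genes were called. Hist1h2bp was at 23.4, 26.1, 19.4 and 13.3 CPM in KO and, apart from replicate 2 with 41.8 CPM, at 7.86, 9.48 and 14.3 CPM in WT. Of the KO libraries 3 were above those 3 WT libraries. In the mean of the 4 days 43 of 57 members were then positive and 0 were called, where 7.89% of all genes were, and 7 had an unadjusted p under 0.05, against 26.4% of all genes. The 4 KO libraries of day 20 did not agree among themselves either, since replicates 1 and 2 had 4099 and 4534 CPM in all and replicates 3 and 4, which also held the most spermatid transcripts of that day (elongating spermatid markers 59.6 and 121.2 CPM against 25.2 and 7.1 CPM), had 3247 and 2682 CPM. The part of stage in these differences was not tested.

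**Figure D3:**
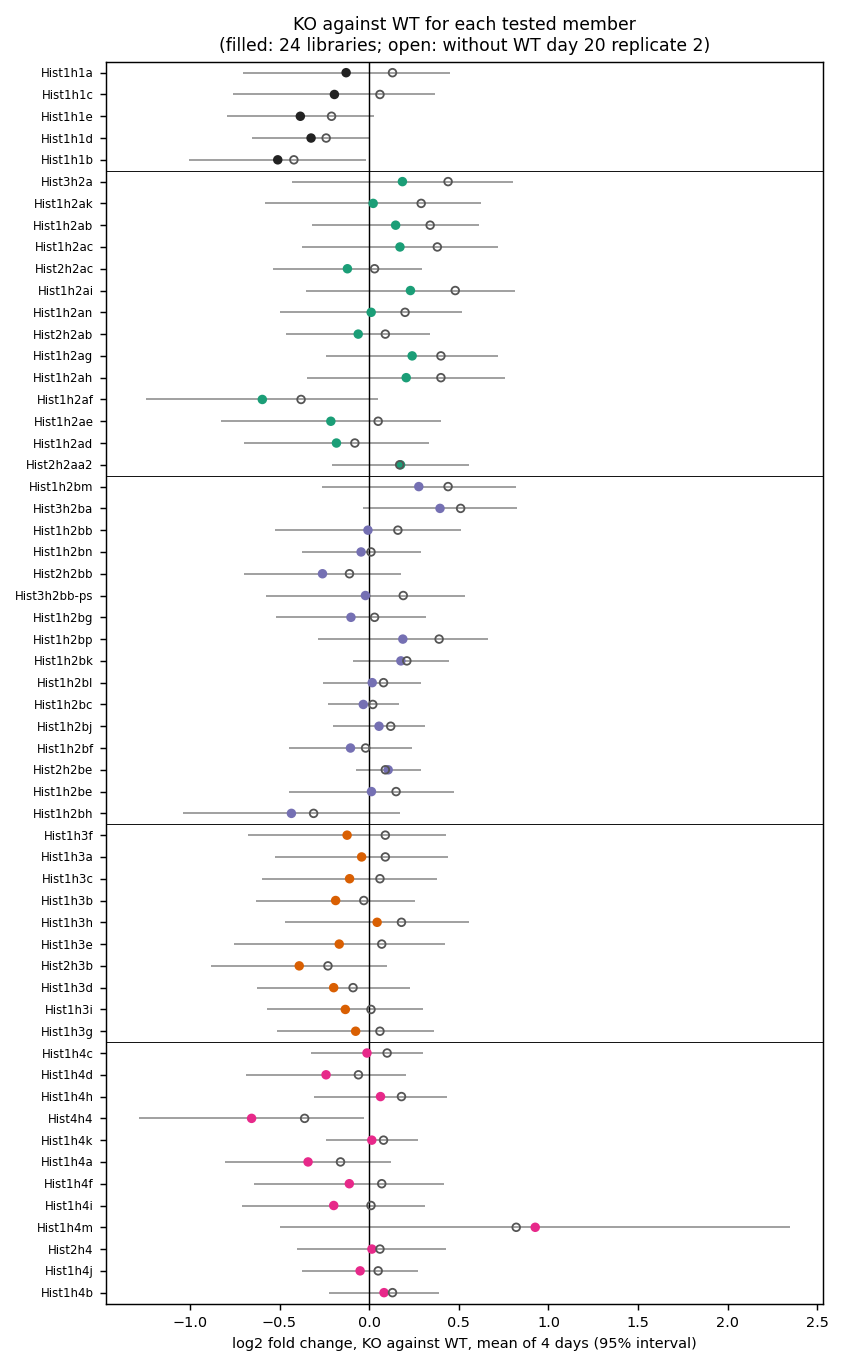
Log2 fold change of each tested member, KO against WT in the mean of the 4 days, with its 95% interval (filled points, all 24 libraries; colours are classes as in the heat map) and the value without WT day 20 replicate 2 (open points). Most intervals include 0, the exceptions being Hist1h1b and Hist4h4, and most open points lie to the right of the filled ones. Hist1h4m has the widest interval.

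From day 20 to day 26 the transcripts fell. In WT 26 of the 57 members were lower and 2 higher at an adjusted p under 0.05, which is 45.6% and 3.51% of them, where 18.1% of all genes were lower and 24.4% higher (42.5% called in all). In KO 22 were lower and 2 higher, 38.6% and 3.51%, where 24.9% of all genes were lower and 27.2% higher (52.2% in all). The median log2 change of the members was -1.04 in WT and -1.07 in KO, beside -0.04 and -0.07 for all genes tested, and 54 and 52 of 57 members had negative values. Among cell markers, 6 of 8 of spermatogonia were lower at day 26 in WT and 5 of 8 in KO (7 and 6 without WT day 20 replicate 2), with medians of -0.75 and -0.67, and 5 and 6 of 8 Sertoli markers were lower. Of 6 peritubular markers 3 were lower and 1 higher in WT and 4 lower and 1 higher in KO (medians -0.66 and -0.91), and 2 were lower in KO than in WT in the mean of the 4 days (3 without that library). Of 6 early meiosis markers 4 were lower in WT and 3 in KO (medians -0.81 and -0.61), or 3 and 5 without WT day 20 replicate 2. Leydig markers were higher, 7 of 7 in WT and 3 of 7 in KO, as were 6 of 6 round spermatid markers in both. Their part in the members' changes was not tested. The 2 comparisons share no library. Of the members called, 12 were called in both, 42.9% of the WT and 50% of the KO calls, and 40 in at least 1. Of all genes called, 83.3% of the WT and 67.9% of the KO calls were called in both.

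The WT falls rest in part on replicate 2 of day 20. Without it 14 members were lower and 2 higher, the median change was -0.56, and 22% of all genes were lower and 24.4% higher (46.4% in all). Of the 28 members called with all libraries 15 were still called, and Hist1h2bp was called in addition, as higher. In KO, where no library was left out, 48 members were lower and 2 higher, with 29.3% of all genes lower and 29.8% higher (59.1% in all). Leaving out WT day 26 replicate 1 or 2 left 11 and 1 members called in WT, where 30.1% and 27% of all genes were called, and leaving out KO day 26 replicate 1 or 2 left 7 in KO, where 38.4% and 33.4% were called. These fits hold 1 library in a group and take its spread from the other groups.

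Among the linker histones, Hist1h1a fell by 1.85 on the log2 scale in WT (SE 0.60, adjusted p 0.0189) and by 0.88 without replicate 2 of day 20 (adjusted p 0.0433). It was at 602, 3714, 750 and 830 CPM in WT at day 20 and at 455 and 360 CPM at day 26, so the groups do not overlap with or without that library. In KO it was at 999, 1137, 801 and 636 CPM and then at 425 and 471 CPM, a log2 change of -0.997 that was not called (adjusted p 0.155), and -0.99 with an adjusted p of 0.0157 when WT day 20 replicate 2 was left out of the fit. Hist1h1c went from 170, 920, 175 and 205 CPM to 142 and 104 CPM in WT, a log2 change of -1.58 (SE 0.58, adjusted p 0.0349) that was -0.62 and not called without replicate 2. Hist1h1e fell by 1.47 (SE 0.42, adjusted p 0.00824) in WT, and by 0.85 (adjusted p 0.00353) without replicate 2. In KO Hist1h1b and Hist1h1d fell by 1.61 (SE 0.51, adjusted p 0.0133) and 1.05 (SE 0.33, adjusted p 0.0115).

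Among the core histones of the nucleosome edge, Hist3h2a was at 371, 1891, 342 and 428 CPM in WT at day 20 and at 215 and 199 CPM at day 26. Its log2 change was -1.87 (SE 0.64, adjusted p 0.0253), and -0.92 (adjusted p 0.0924) without replicate 2, although the groups do not overlap either way. Its neighbour Hist3h2ba fell in both genotypes, by 1.54 in WT (SE 0.44, adjusted p 0.00845) and by 1.04 in KO (SE 0.43, adjusted p 0.0466), and by 1.12 in WT without replicate 2 (adjusted p 0.0183), from 41.8, 99.0, 30.1 and 44.3 CPM to 18.6 and 18.2 CPM in WT. Hist1h2bm fell by 1.60 in WT (SE 0.55, adjusted p 0.0262) and by 1.55 in KO (SE 0.55, adjusted p 0.0249), but its WT change was -0.99 and not called (adjusted p 0.084) without replicate 2. In KO Hist1h2bk, Hist1h2bl and Hist1h2bn had the smallest p of all members, with falls by 1.44, 1.43 and 1.46 (adjusted p 0.000213, 0.000269 and 0.00138). Over the H2B class 8 of 16 tested members were lower in WT and 11 of 16 in KO, and over the H2A class 4 of 14 and 1 of 14, where 18.1% and 24.9% of all genes were lower. Without replicate 2 the counts were 4 and 13 for H2B and 1 and 11 for H2A, where 22% and 29.3% of all genes were lower.

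Among the H3 genes 4 of 10 tested members were lower in WT and 7 of 10 in KO, or 1 and 10 without replicate 2. Of all genes 18.1% were lower in WT and 24.9% in KO, or 22% and 29.3% without replicate 2. Hist1h3d was at 15.7, 15.1, 11.7 and 9.07 CPM in KO at day 20 and at 4.89 and 2.696 CPM at day 26, with no overlap, and fell by 1.77 (SE 0.44, adjusted p 0.00244). Hist1h3a and Hist1h3c fell by 1.57 and 1.66 in KO. In WT they fell by 1.28 and 1.24, but without replicate 2 their changes were -0.81 and -0.64 and neither was called (adjusted p 0.117 and 0.162). For H4 the count was 7 of 12 in WT and 1 of 12, Hist1h4k, in KO, or 6 and 9 without replicate 2. For H1 it was 3 and 2 of 5, or 2 and 5. Both are to be read against the same shares of all genes. Hist1h4d fell by 1.67 in WT (SE 0.46, adjusted p 0.00696), by 1.01 without replicate 2 (adjusted p 0.00464), and its KO change was -0.90, not called with all libraries and called (adjusted p 0.00583) without replicate 2. Hist1h4c, the most abundant H4 transcript, was at 203, 575, 215 and 276 CPM in WT at day 20 and at 176 and 132 CPM at day 26, a fall by 1.04 (SE 0.31, adjusted p 0.0107), and by 0.63 (adjusted p 0.0105) without replicate 2.

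Against this trend 2 members rose in both genotypes. Hist2h2be is an H2B gene at chr3:96221119-96223738 with a long annotated tail and no stem-loop match, and all of its windows are unique. It was at 31.4, 19.7, 23.2 and 23.0 CPM in WT at day 20 and at 32.1 and 37.2 CPM at day 26, and in KO at 25.3, 29.2, 23.8 and 27.0 CPM and then at 39.9 and 40.4 CPM. The groups do not overlap in either genotype. The rise was 0.51 in WT (SE 0.17, adjusted p 0.0224) and 0.61 in KO (SE 0.17, adjusted p 0.00551), and in WT it was 0.38 with an adjusted p of 0.068 without replicate 2 of day 20.

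Hist2h2aa2, an H2A gene of the same cluster (chr3:96239749-96240276), rose from 0.393, 0.421, 0.347 and 0.792 CPM to 2.09 and 1.94 CPM in WT, by 2.02 on the log2 scale (SE 0.36, adjusted p 0.000112), and by 1.93 (adjusted p 0.000393) without replicate 2. In KO it rose from 0.725, 0.654, 0.330 and 0.745 CPM to 1.93 and 1.26 CPM, by 1.36 (SE 0.36, adjusted p 0.00334). Groups do not overlap. None of its 454 annotated windows is unique, since Hist2h2aa1, which was at 0 everywhere, repeats them. Where its few counted reads came from was not tested, and its values are uncertain.

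Hist1h2bc, the other well-measured H2B gene with a long tail and no stem-loop match, was at 28.7, 39.9, 24.3 and 24.0 CPM in WT at day 20 and at 24.2 and 19.5 CPM at day 26, a log2 change of -0.41 that was not called. In KO it fell by 0.58 (SE 0.19, adjusted p 0.0162). Hist1h2bp had 0.21 in WT and 0.12 in KO, neither called, and 0.95 (adjusted p 0.00812) in WT without replicate 2.

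**Figure D4:**
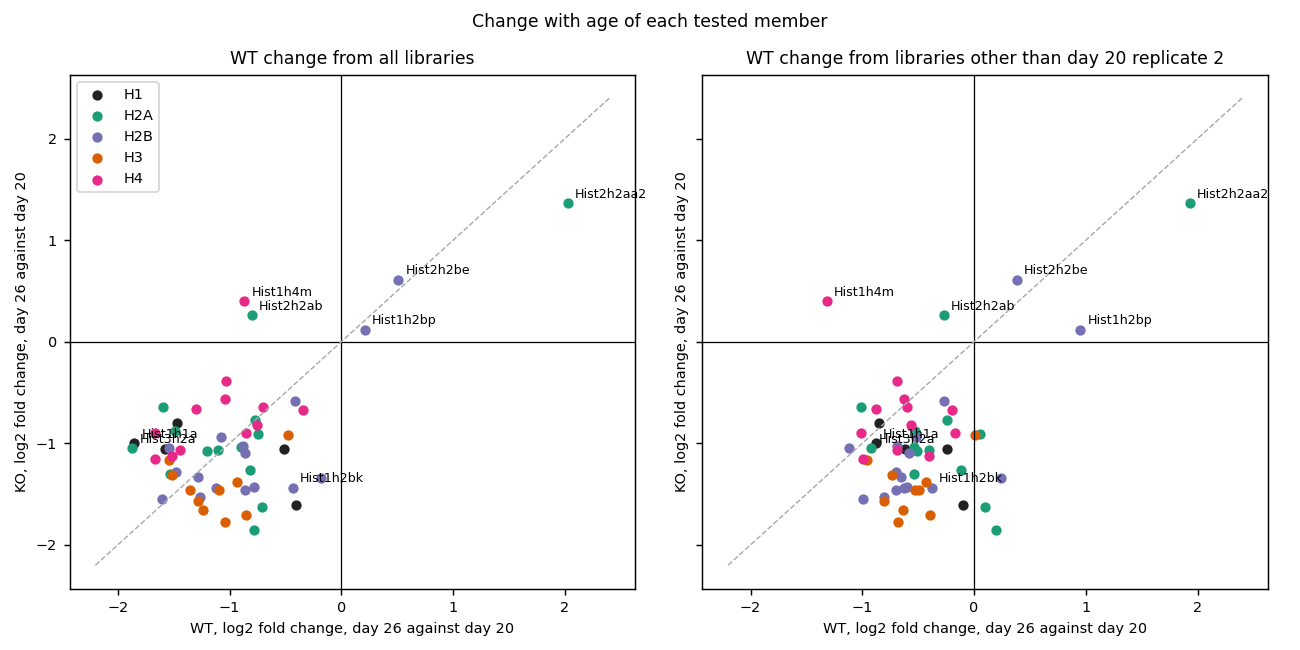
Log2 fold change from day 20 to day 26 of each tested member in WT (x axis) and KO (y axis), with WT from all libraries (left) and without WT day 20 replicate 2 (right); KO values are the same in both panels and the dashed line marks equal change. Most points lie below 0 on both axes, Hist2h2aa2 and Hist2h2be lie above 0 on both, and the cloud moves towards 0 on the WT axis in the right panel.

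Whether the fall differed between genotypes was tested as the KO change minus the WT change. With edgeR's quasi-likelihood test 0 of 57 members were called (0% of all genes). An unadjusted p under 0.05 was reached by 1 member, against 10.8% of all genes. DESeq2 called 0 members, where it called 1.29% of all genes. The edgeR median was -0.06, beside -0.07 for all genes. The smallest p belonged to Hist1h2bk (-1.003 ± 0.37, SE, 95% interval -1.76 to -0.24, adjusted p 0.281), Hist2h2ab (1.07 ± 0.55, adjusted p 0.508, or 0.53 without WT day 20 replicate 2) and Hist1h1b (-1.20 ± 0.68, adjusted p 0.578). The intervals are wide, and for a typical member, with an SE of 0.63, a 2-fold difference in the age change would not have been called. Without WT day 20 replicate 2 the median was -0.57, with 10 of 57 members positive and 0 called, and 10 had an unadjusted p under 0.05, against 17.8% of all genes. The joint edgeR test of whether the KO effect differed between the 4 days called 0 members, where 0.00582% of all genes were called. In it 0 members had an unadjusted p under 0.05. DESeq2 called 0 members, where it called 1.66% of all genes. The smallest edgeR p belonged to Hist1h2bk, Hist2h2ab and Hist1h2bl, with adjusted p of 0.559, 0.801 and 0.845.

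The members rose and fell together from library to library. Over the 24 libraries the correlation of a member's log2(CPM + 0.5) with the log2 sum of the other members had a median of 0.869, it exceeded 0.8 for 42 of the 57, and the median was 0.832 without WT day 20 replicate 2. The points share scaling and libraries, and the value is a description. The exceptions were Hist2h2be (-0.749), Hist2h2aa2 (-0.482) and Hist1h4m (-0.427), while the low values of Hist1h2bh (0.387), Hist2h4 (0.478) and Hist1h2bp (0.484) were still positive.

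In WT day 20 replicate 2 itself 50 of the 57 members had their highest value of all 24 libraries. The ratio of its level to the mean of the other 3 WT libraries of that day had a median of 3.07. The highest ratios were 5.92 for Hist4h4 (416 CPM against 70.3 CPM), 5.60 for Hist1h2ae and 5.31 for Hist1h2ak, and Hist1h1a had 5.10. Members near 1 were Hist1h2bk (1.31), Hist2h4 (1.47) and Hist1h2bc (1.56), and Hist2h2be (0.761), Hist2h2aa2 (0.825) and Hist1h4m (0) were below it. That library also held the most RNA of other short transcripts without poly(A) tails, with Rpph1, the RNA of ribonuclease P, at 38034 CPM against 3770 to 11924 CPM elsewhere and Rmrp, that of ribonuclease MRP, at 6242 CPM against 607.8 to 3188 CPM elsewhere. The summed level of the list of such RNAs followed the summed histone level over the 24 libraries with r = 0.891 (rho = 0.816), or 0.783 without that library. Early meiosis markers (r = 0.916, or 0.847 without it) and DNA replication genes (r = 0.879, or 0.758) did so as closely. The value was 0.598 for spermatogonia (0.609 without it), -0.754 for pachytene (-0.690) and -0.790 for round spermatid markers (-0.741). That library was also the highest in both, with 2045 CPM of early meiosis markers against 965 to 1049 CPM in the other WT libraries of day 20 and 2050 CPM of replication genes against 1436 to 1616.5 CPM. Rmrp and Rpph1 fell with age too, by 1.31 (SE 0.45, adjusted p 0.0235) and 1.60 (SE 0.52, adjusted p 0.0187) in WT, with KO changes of -0.78 and -0.67 that were not called. Without replicate 2 the WT values were -0.85 (adjusted p 0.0643) and -0.83 (adjusted p 0.042). Of the 6 tested RNAs of that list 1 was then lower and 0 higher in WT, with a median of -0.14. In KO 1 was lower and 1 higher, with a median of -0.17. The parts of these RNAs, markers and replication genes in the histone values were not tested.

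**Figure D5:**
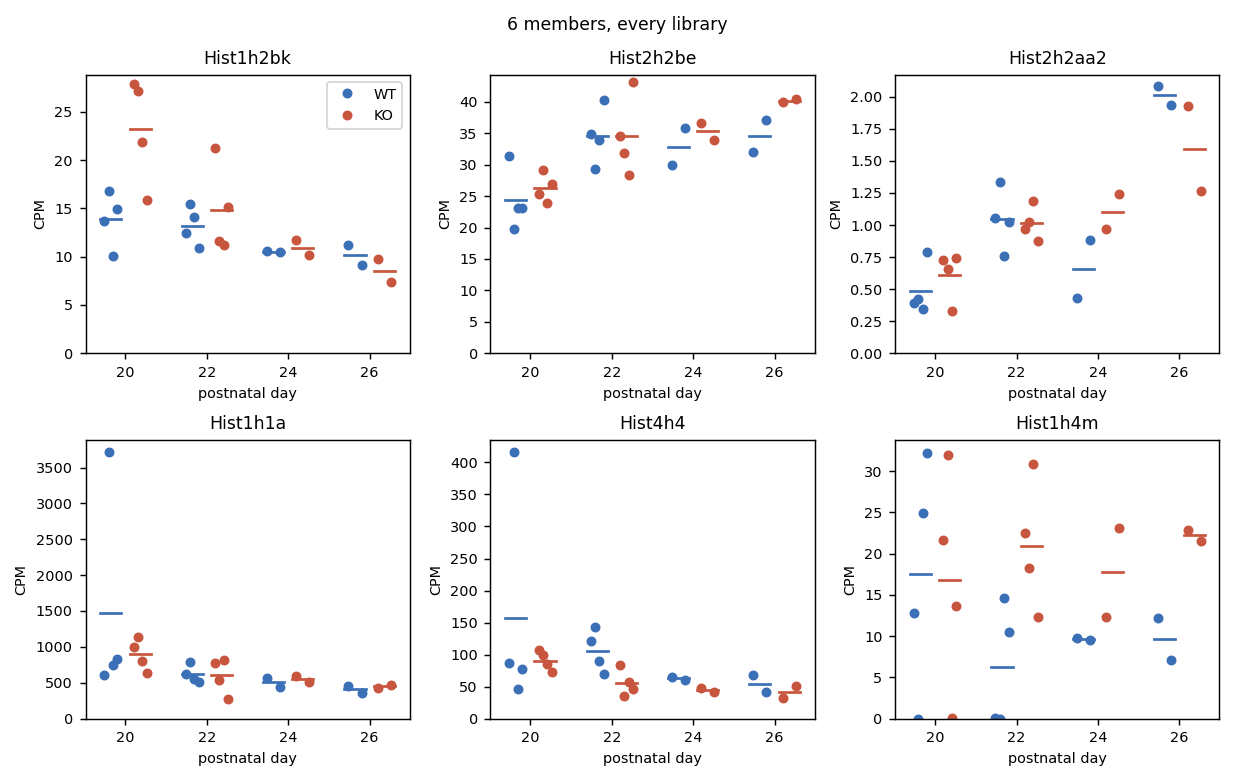
CPM of 6 members in every library (points; bars are group means) against postnatal day. Hist1h2bk is highest in 3 KO libraries of day 20, Hist2h2be and Hist2h2aa2 rise to day 26, Hist1h1a and Hist4h4 have 1 outlying WT library at day 20, and Hist1h4m is at or near 0 in 4 libraries.

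Hist1h4m, singled out after its values were seen, was present or absent by library and not by group. It had 0 counts in WT day 20 replicate 2 and WT day 22 replicate 2, 1 count in KO day 20 replicate 3 and WT day 22 replicate 1, and 99 to 489 counts (7.10 to 32.2 CPM) in the other 20 libraries of both genotypes and all days. A floor of 3 counts in those 4 libraries corresponds to 0.198 to 0.316 CPM. No other gene of the 24456 had at most 3 counts in these 4 libraries and at least 50 in every other. The gene lies at chr13:21811746-21812147 on the plus strand, and its copy Hist1h4n at chr13:21831767-21832196 on the minus strand. Their transcripts differ in 1 of 38 bases compared before the start codon, in 0 of 312 coding bases and in 0 of 52 bases after the stop codon. The differing base is in capitals here.
Hist1h4m: acagttttgtcttcGtcatgtctggtcgtg
Hist1h4n: acagttttgtcttcAtcatgtctggtcgtg
Only 10.98 percent of the windows of Hist1h4m and 16.6 percent of those of Hist1h4n are unique, and Hist1h4n had at most 2 counts in any library. The KO against WT values of Hist1h4m at day 22, 1.69 ± 1.12 (SE, adjusted p 0.585), therefore reflect 22.4, 18.2, 30.9 and 12.3 CPM in KO against 0.0704, 0, 14.6 and 10.485 CPM in WT, where 2 WT libraries are at or near 0. At day 26 the gene was at 22.9 and 21.6 CPM in KO and at 12.2 and 7.10 CPM in WT, without overlap.

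The genes that act on these transcripts did not follow them as a block. Of 17 genes of histone transcription, processing and decay, 5 were lower and 0 higher at day 26 than at day 20 in WT, and 5 were lower and 2 higher in KO. Npat, the coactivator that switches on histone genes at the start of S phase, fell by 0.84 in WT (SE 0.20, adjusted p 0.00215) and by 0.54 in KO (adjusted p 0.0278), and Hinfp, an H4 promoter factor, by 0.81 (adjusted p 0.000103) and 0.53 (adjusted p 0.00379). Slbp, which binds the stem-loop, had -0.50 (SE 0.20, adjusted p 0.0511) and -0.24, not called, and -0.27 in WT without WT day 20 replicate 2. None of the 17 was called in KO against WT in the mean of the 4 days, and 3 had an unadjusted p under 0.05.

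Of 28 genes of DNA replication 10 were lower and 0 higher in WT and 11 lower and 1 higher in KO from day 20 to day 26, with Mcm2 falling by 0.89 (SE 0.14, adjusted p 2.54e-05) and 0.77 (adjusted p 0.000126). Their median change, -0.36 in WT and -0.27 in KO, was smaller than that of the histone members. In KO against WT in the mean of the 4 days Mcm6 was lower (-0.24 ± 0.06, adjusted p 0.0293) and Mcm7 higher (0.21 ± 0.06, adjusted p 0.0400), and 26 were not called. Of 10 genes of histone chaperoning and supply, 3 rose and none fell with age in WT and 3 rose and 1 fell in KO, or 3 and 2 in WT and 4 and 3 in KO without WT day 20 replicate 2. Nasp, which holds soluble H3 and H4 and linker histones, rose by 0.84 (SE 0.19, adjusted p 0.00150) in WT and by 1.16 (adjusted p 5.41e-05) in KO.

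Of 11 genes listed as replication-independent histones, most of which are expressed outside S phase from polyadenylated transcripts, 0 were called with age in WT (edgeR). In WT 0 had an unadjusted p under 0.05, and 1 was called lower without WT day 20 replicate 2. In KO 4 were lower and 1, H1fx, higher. Their summed level followed that of the members with r = 0.555, or 0.711 without WT day 20 replicate 2. Of 5 testis histone genes 2 were higher and 1, Hist1h2aa (-1.33, adjusted p 0.0484), lower at day 26 in WT, and 2 higher and 0 lower in KO; without replicate 2 Hist1h2aa had -0.61 and was not called. The summed level of these 5 was 6304 CPM in WT day 20 replicate 2 and 1502 to 2128 CPM in the other WT libraries of that day, and 2660, 2944, 2226 and 1832 CPM in KO, the same order of libraries as for the members. At day 26 it was 1703 and 1426 CPM in WT and 1768 and 1885 CPM in KO. The spermatid linker histones H1fnt and Hils1 were called higher at day 26 than at day 20 in WT and KO, and both were higher in KO than in WT in the mean of the 4 days, H1fnt by 2.97 ± 0.66 (adjusted p 0.0193) and Hils1 by 1.38 ± 0.40 (adjusted p 0.0431), which was 1.33 with an adjusted p of 0.0635 without replicate 2. Elongating spermatid markers were higher too in that comparison, 8 of 8 called and 7 of 8 without replicate 2, so more spermatid RNA was present in the KO libraries in which no replication-dependent member was called. The part of this shift in the members' values was not tested.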

How the data were processed

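RNA-seq of 24 mouse testis libraries (WT and Atad2 KO, postnatal days 20, 22, 24 and 26) was analysed from the read-pair counts per gene that the authors deposited. The authors prepared stranded, rRNA-depleted total RNA libraries, aligned paired-end reads to mm10 with STAR 2.7.11b and counted pairs on exons with HTSeq, using strand, requiring pairs to lie within 1 gene and discarding pairs with several alignments; DESeq2 1.22.2 is named in the submitters' processing notes. The gene model version is not given in the sources used here. The 5 tally rows per library (no feature, ambiguous, not unique and others) were kept out of library sizes; pairs in no feature were 45.1 to 58.5% and pairs not unique 4.74 to 13.7% of the pairs listed.

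Counts were analysed with edgeR 4.0.16 in R 4.3.3 (TMM, filterByExpr with a minimum count of 10, quasi-likelihood F test with robust = TRUE, 1 coefficient for each of 8 groups), Benjamini-Hochberg adjustment over 17170 genes, and a threshold of 0.05. SE is the absolute log2 fold change over the square root of F, and intervals are 95%. Lengths are of RefSeq transcripts, and of GENCODE transcripts for 5 members. Comparisons were KO against WT at each day and in the mean of the days, day 26 against day 20 in each genotype, and the differences between these. Alternatives were DESeq2 1.42.0, RLE factors, no filter, robust = FALSE, each day alone, replicate blocks and leaving out each library. The test was tested on simulated data. No 2 libraries of a group agreed within counting noise.

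The members and lists were chosen with earlier results of these data known. Members are named where they were called (for age, up to 12 rises and 12 falls per genotype), where they were among the 3 most abundant of their class, where they had 0 counts everywhere, or, where none was called, if among the 3 smallest p. Sequences are from GENCODE M21 and RefSeq (GRCm38.p6).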

Additional observations from a re-analysis of the deposited data

Results flagged for a closer look

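Within groups of 4 libraries the highest or lowest value was set against Dixon's 95% critical value for the summed levels and the named members, in 196 combinations of a measure and a group, of which chance would mark about 1 in 20. There were 28 marks, and 27 of them were the high value of WT day 20 replicate 2. The members share that library, so these are not independent. Its summed level was 10800 CPM against 2510 to 3108.5 CPM in the other WT libraries of day 20. By class it held 4933 CPM of H1, 2276 CPM of H2A, 703.5 CPM of H3 and 2060 CPM of H4 transcripts, and by cluster 8139 CPM of Hist1, 189.3 CPM of Hist2, 2059 CPM of Hist3 and 416.2 CPM of Hist4 transcripts.

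Among linker histone genes its values were 3714 CPM for Hist1h1a, 919.8 CPM for Hist1h1c and 234.2 CPM for Hist1h1e. Among H2A and H2B genes they were 1891 CPM for Hist3h2a, 151.7 CPM for Hist1h2ak, 54.86 CPM for Hist1h2ab, 25.9 CPM for Hist1h2ai, 69.08 CPM for Hist3h2bb-ps and 45.07 CPM for Hist1h2bg. Among H3 genes they were 250.6 CPM for Hist1h3f, 93.82 CPM for Hist1h3c, 87.4 CPM for Hist1h3e, 52.12 CPM for Hist1h3b, 38.65 CPM for Hist2h3b and 19.69 CPM for Hist1h3d. Among H4 genes they were 416.1 CPM for Hist4h4, 392.3 CPM for Hist1h4d and 71.39 CPM for Hist1h4f. The remaining mark was Hist2h2aa2 at 0.7919 CPM in WT day 20 replicate 4, against 0.347 to 0.421 CPM in the other WT libraries of that day.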

How the results depend on the processing

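With RLE factors, no filter or robust = FALSE the counts of members called stayed within 1.5 times of those reported, with 1 exception. No filter gave 1 member at day 20, Hist1h2bk (adjusted p 0.046), where 2.33% of all genes were called. DESeq2 also gave 1 there (adjusted p 0.0175), where it called 5.05% of all genes. Each day fitted alone gave 4 members at day 26, where 12.8% of all genes were called: Hist1h1b (-1.16), Hist1h4m (1.20), Hist3h2a (0.45) and Hist3h2ba (0.67), from 2 libraries a genotype. The labels do not say what replicate numbers share between genotypes, and 7 of 12 same-numbered pairs correlated above 0.1 (-0.451 to 0.412, against -0.396 to 0.483 for other pairs), of which 4 are the pairs of days 24 and 26, where both pairs of a day have the same value by construction; with the number as an additive replicate block 43 members were called in KO from day 20 to day 26, against 24, with 53.2% of all genes called, against 52.2%, and the block moved no other count by over 1.5 times. Leaving out 1 library gave 0 to 1 members for KO against WT at day 20 (0.882% to 4.55% of all genes), 1 to 39 for WT age (27% and 44.5% of all genes in those fits) and 7 to 50 for KO age (38.4% or 33.4%, and 59.1%), and 0 elsewhere. It moved the log2 difference of the summed level between -0.3 and 0.4 at day 20, -0.31 and 0.08 at day 22, -0.03 and 0.19 at day 24, -0.04 and 0.31 at day 26, -1.38 and -0.68 with age in WT and -1.08 and -0.82 with age in KO. DESeq2 size factors, or only the members at least 50% unique, moved each summed difference by less than 1 SD. The cause of these shifts was not tested. Depth limits members with few counts, such as Hist2h2aa2.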
